A study of Mus musculus with 48 samples.

Results

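Cholesterol is made, sensed, moved and removed by a small set of genes, and 30 of them were followed here in mouse fat out of 47729 genes in the table. They were chosen by symbol: 19 enzymes of synthesis, 4 genes of sterol sensing, 2 genes of sterol transport and esterification, and 5 genes of efflux and the liver X receptor (LXR) response. All 30 symbols were found, and all 30 genes passed the filter on low counts in every depot. Poly(A) RNA was sequenced from 3 snap-frozen fat depots of male mice: BAT, which is brown fat, SFAT, white fat from under the skin, and EFAT, white fat of the abdominal cavity. Each depot had 4 groups of 4 libraries, 48 libraries in all. The groups were Cth+/+ on the control diet (CTRL), Cth+/+ on the cystine-free diet (CysF), Cth-/- on CTRL and Cth-/- on CysF, each diet for 6 days. Cth encodes cystathionine gamma-lyase, the enzyme that completes the body's own synthesis of cysteine from methionine, and cystine is the oxidised dimer of cysteine in the diet. The labels give no age, strain, housing temperature or description of the Cth allele. They also do not say that the libraries of a group, or the libraries of different depots with the same number, come from separate or shared mice, so the p-values measure the spread between these libraries.

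Cholesterol synthesis runs from acetyl-CoA through mevalonate, isoprenoid diphosphates and squalene to lanosterol and then cholesterol. When sterols in the endoplasmic reticulum are low, SCAP carries the membrane-bound factor SREBP2 (Srebf2) to the Golgi, where its active domain is released to switch on the genes of synthesis and uptake. When sterols are plentiful, INSIG proteins hold SCAP back, and oxysterols activate the liver X receptors, which switch on the exporters Abca1 and Abcg1 and the ubiquitin ligase Mylip, which marks the low-density lipoprotein receptor for degradation. Fat is a large store of cholesterol, most of it unesterified.

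The promoters of most synthesis enzymes, but not of most efflux and LXR genes, hold a sequence feature that was not itself used to choose the genes. Known SREBP2 targets were chosen, so the feature is not independent of the choice. RefSeq start sites on GRCm38.p6 gave a window of 250 bases upstream for 25 of the 30 genes. The letters CCAAT, the core bound by nuclear factor Y, a known partner of SREBP2, were searched on both strands (ATTGG on the other strand). They were in the window of 15 of 16 synthesis enzymes (93.8%), all but Acat2, in 3 of 4 sensing genes and in 1 of 4 efflux and LXR genes, Mylip. Over the 27025 genes of the promoter table the share was 37.5%. The letters TCACNCCAC, the core of a sterol regulatory element, were in the window of Hmgcs1 alone among the 25 genes, at bases -137 to -129, against 1.22% of all genes. The 3 windows below are shown because Hmgcs1 held both motifs, Mvd had the largest fall of the enzymes in BAT of Cth-/- mice, and Mylip moved the opposite way with CCAAT boxes of its own. Hmgcs1 is chr13:119690101-119690350 on the plus strand, Mvd is chr8:122443423-122443672 on the minus strand and Mylip is chr13:45389492-45389741 on the plus strand, each read 5' to 3' with the last base just before the RefSeq start. Capitals mark CCAAT or ATTGG and, in Hmgcs1, the sterol regulatory element core. A match is only a match of letters, and no binding was measured.
Hmgcs1: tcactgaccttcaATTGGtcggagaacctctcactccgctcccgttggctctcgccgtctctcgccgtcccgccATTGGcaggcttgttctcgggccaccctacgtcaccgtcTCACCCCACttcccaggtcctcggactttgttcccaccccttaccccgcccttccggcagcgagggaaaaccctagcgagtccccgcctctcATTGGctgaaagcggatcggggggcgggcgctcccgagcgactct
Mvd: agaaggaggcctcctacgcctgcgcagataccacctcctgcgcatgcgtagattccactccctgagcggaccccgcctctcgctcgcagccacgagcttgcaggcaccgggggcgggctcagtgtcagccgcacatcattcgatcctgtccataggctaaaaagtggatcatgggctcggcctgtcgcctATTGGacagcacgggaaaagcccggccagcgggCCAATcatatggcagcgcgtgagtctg
Mylip: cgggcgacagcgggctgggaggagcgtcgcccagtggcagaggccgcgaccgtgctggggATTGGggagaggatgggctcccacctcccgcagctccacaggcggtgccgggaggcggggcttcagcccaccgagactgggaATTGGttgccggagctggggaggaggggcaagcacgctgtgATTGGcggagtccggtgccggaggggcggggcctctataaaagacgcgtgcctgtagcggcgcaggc

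Library depth was 16.2 M to 46.0 M expected counts. Cth reads numbered 0 to 6 in the libraries labelled Cth-/- and 8 to 389 in those labelled Cth+/+, so the counts went with the labels. The labelled tissue was checked on its markers: the summed level of 8 brown adipocyte markers was 2697 to 7709 CPM (library-size-scaled counts) in BAT and 16.94 to 1844 CPM in the white depots. Mitochondrially encoded reads ranged from 4.82% of a library in EFAT to 45.7% in BAT. A set of 7 libraries that stood apart was marked as doubtful, and counts without them are given where they differ: BAT 8, with the highest muscle markers, BAT 10, BAT 12 and SFAT 20, with high mitochondrial shares, and EFAT 2, 11 and 14, which correlated least with their own groups. The libraries also fell into 2 sets by the gene Gm43512 (7 of 16 libraries per depot at or above 0.1 CPM). The labels do not say what separates the sets. In BAT the libraries with Gm43512 had mitochondrial shares of 28.6% to 45.7%, and those without it 21.8% to 27.9%. The doubtful libraries BAT 10, BAT 12 and SFAT 20 were in the set with Gm43512, so these limits go together. In EFAT the sets ran partly with the groups: 3 of 4 Cth-/- CysF libraries but 1 of 4 Cth-/- CTRL libraries were in the set with Gm43512. Of the Cth+/+ libraries of EFAT, 3 of 4 on CTRL but 0 of 4 on CysF were in it. Each EFAT comparison of diet or genotype was thus partly mixed with the sets. Both comparisons that use Cth+/+ CysF set 3 of 4 libraries against 0 of 4.

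In EFAT and BAT, Cth-/- mice on CysF had lower transcripts of many synthesis enzymes and higher transcripts of some efflux and LXR genes than Cth-/- mice on CTRL. In SFAT few of the genes passed the test, and in BAT the enzyme Fdft1 rose. In BAT 13 of the 30 genes passed the test (4 higher, 9 lower), in EFAT 18 (4 higher, 14 lower) and in SFAT 5 (3 higher, 2 lower). Over all genes tested, the shares called higher and lower were 7.81% and 10.2% for BAT, 11.8% and 13.6% for SFAT, and 14.5% and 14.3% for EFAT. The lower calls of the module in BAT and EFAT exceeded these shares of all genes, and its calls in SFAT did not. Its 4 higher calls lay slightly above the share of all genes in BAT and near it in EFAT. The test throughout was edgeR's quasi-likelihood F-test, called at an adjusted p under 0.05 over all genes of the fit, and values after ± are standard errors of the log2 fold change unless marked SD. Levels are given in CPM for the 4 libraries of a group in order of replicate number, 12 to 15 for Cth-/- CTRL and 16, 17, 18 and 20 for Cth-/- CysF.

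**Figure D1:**
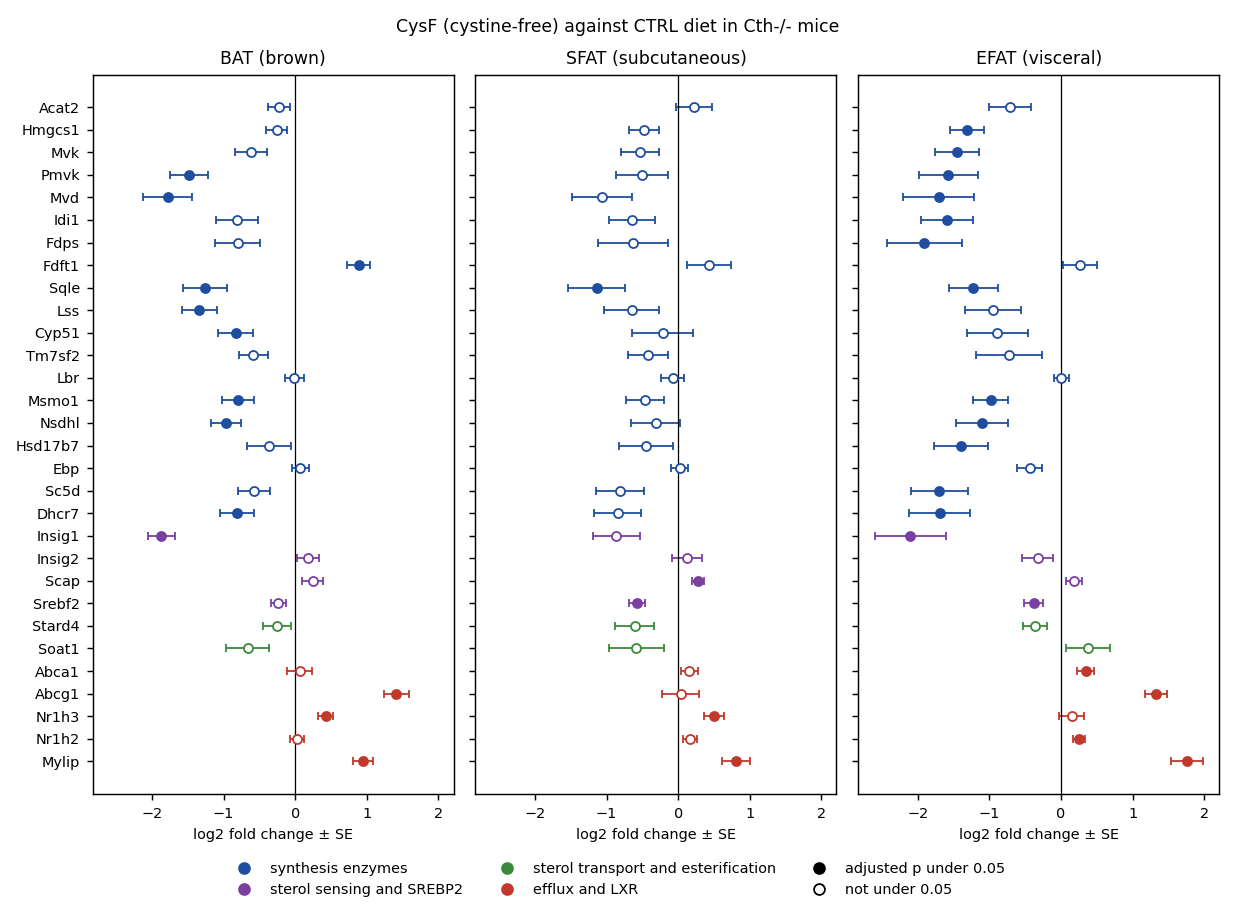
Log2 fold change of CysF against CTRL in Cth-/- mice for the 30 genes (rows) in BAT, SFAT and EFAT (panels), with standard error bars, 4 libraries a group. Filled points passed the test: 13 for BAT, 5 for SFAT and 18 for EFAT, with synthesis enzymes mostly left of 0 and efflux and LXR genes right of it.

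Among the 19 synthesis enzymes, 12 fell in EFAT and none rose, 8 fell in BAT and 1 rose, and 1 fell in SFAT. The median log2 fold change of the enzymes was -1.22 in EFAT, -0.80 in BAT and -0.48 in SFAT, against 0.07, -0.01 and 0.03 over all genes tested. Of all 30 genes, not the enzymes alone, 13 in EFAT, 7 in BAT and 3 in SFAT had every CysF library below every CTRL library. Over all genes tested, 12.5%, 12% and 14.5% did so. The counts in EFAT and BAT exceeded these shares and the count in SFAT did not. In SFAT the 3 genes were Sqle, Insig1 and Srebf2. Going the other way, 4 genes in EFAT, 4 in BAT and 2 in SFAT had every CysF library above every CTRL library, against 14.4%, 10.4% and 13.5% of all genes. These counts lay near the shares of all genes in EFAT and BAT and below the share in SFAT.

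The mevalonate steps carried large differences in EFAT. Hmgcs1 (chr13:119690379-119708260, GRCm38), which makes HMG-CoA, was at 477, 293, 409 and 219 CPM on CTRL and 114, 135, 169 and 143 CPM on CysF in EFAT of Cth-/- mice. The 4 CysF libraries lay below all 4 CTRL libraries, a log2 fold change of -1.32 ± 0.24 (adjusted p = 0.00141). In BAT the same gene did not pass, at 211, 273, 178 and 265 CPM on CTRL and 213, 170.5, 214 and 175 CPM on CysF, ranges that overlapped (-0.26 ± 0.15 (adjusted p = 0.23)). Its SFAT difference was -0.48 ± 0.21 (adjusted p = 0.102). Mvk (chr5:114444269-114460591), mevalonate kinase, fell in EFAT from 27.9, 15.6, 25.9 and 11.1 CPM to 10.5, 5.95, 7.58 and 5.29 CPM, with no overlap (-1.45 ± 0.30 (adjusted p = 0.00366)). The differences of Mvk in BAT and SFAT, -0.62 ± 0.22 and -0.54 ± 0.27, did not pass (adjusted p = 0.0668 and 0.154).

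Pmvk (chr3:89454541-89469013), phosphomevalonate kinase, was at 83.4, 37.2, 89.9 and 52.5 CPM in BAT of Cth-/- mice on CTRL and at 32.7, 22.9, 18.9 and 19.4 CPM on CysF. The CTRL libraries split widely, with 12 and 14 high and 13 and 15 low, but all stayed above the CysF libraries (-1.48 ± 0.26 (adjusted p = 0.00156)). EFAT showed the same split on CTRL, 67.9, 21.8, 55.8 and 22.5 CPM, and 18.7, 12.4, 12.9 and 12.3 CPM on CysF (-1.57 ± 0.41 (adjusted p = 0.0114)), while in SFAT the difference of -0.50 ± 0.36 did not pass (adjusted p = 0.338). Mvd (chr8:122433601-122443422), which decarboxylates mevalonate diphosphate, went the same way. In BAT it was at 12.4, 5.62, 9.23 and 4.68 CPM on CTRL and 2.94, 2.51, 1.62 and 1.95 CPM on CysF, without overlap (-1.78 ± 0.34 (adjusted p = 0.00276)). In EFAT it went from 17.3, 6.88, 11.1 and 3.82 to 3.79, 2.71, 2.29 and 3.09 CPM (-1.71 ± 0.50 (adjusted p = 0.0205)), where the lowest CTRL library was just above the highest CysF library and 6 of 17 alternatives (other settings, or a library left out) lost the call. SFAT had 12.0, 8.63, 10.0 and 6.46 CPM on CTRL and 3.28, 7.15, 2.80 and 4.54 CPM on CysF, where library 17 reached into the CTRL range and the difference did not pass (-1.06 ± 0.42 (adjusted p = 0.0771)).

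Idi1 (chr13:8885501-8892451), the isopentenyl diphosphate isomerase, was at 92.0, 38.7, 79.6 and 36.7 CPM on CTRL and 19.0, 23.1, 18.4 and 21.4 CPM on CysF in EFAT (-1.59 ± 0.36 (adjusted p = 0.00569)). The CysF libraries were tightly grouped and all below CTRL. Its differences in BAT and SFAT were -0.82 ± 0.30 and -0.64 ± 0.32, neither past the test (adjusted p = 0.0686 and 0.161). Fdps, farnesyl diphosphate synthase, fell in EFAT (-1.91 ± 0.52 (adjusted p = 0.0143)) and had values of -0.81 ± 0.31 in BAT and -0.63 ± 0.48 in SFAT. Acat2, the cytosolic thiolase that makes acetoacetyl-CoA, did not pass in any depot, with -0.22 ± 0.15 in BAT, 0.22 ± 0.26 in SFAT and -0.71 ± 0.29 in EFAT. Reads of Acat2 could be shared with its near-identical neighbour Acat3, so its values are uncertain.

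Fdft1 (chr14:63145150-63179578), squalene synthase and the first step committed to sterols, was the exception among the enzymes in BAT. It rose there from 86.9, 68.0, 82.8 and 80.2 CPM to 95.2, 164, 163 and 165 CPM, with every CysF library above CTRL although library 16 stayed near it (0.89 ± 0.16 (adjusted p = 0.00192)). In SFAT it was 66.8, 37.9, 74.97 and 41.8 CPM on CTRL and 49.8, 80.2, 47.6 and 122 CPM on CysF, ranges that overlapped (0.43 ± 0.30 (adjusted p = 0.324)). The EFAT difference was 0.26 ± 0.24 (adjusted p = 0.43). The enzyme after it, squalene epoxidase, did the opposite. Sqle (chr15:59315077-59331192) was the member that fell in all 3 depots. It went from 31.1, 13.0, 32.8 and 14.1 to 12.2, 7.69, 6.91 and 10.8 CPM in BAT (-1.27 ± 0.31 (adjusted p = 0.0112)). In SFAT it went from 27.7, 13.1, 28.6 and 14.8 to 12.4, 9.27, 5.98 and 10.8 CPM (-1.14 ± 0.40 (adjusted p = 0.0481)). In EFAT it went from 39.6, 16.3, 32.7 and 17.5 to 11.9, 9.45, 9.25 and 14.7 CPM (-1.22 ± 0.34 (adjusted p = 0.0169)). The 2 diets did not overlap in any of the depots, though the lowest CTRL libraries came close to the highest CysF library. The BAT call was lost with set A alone (the libraries without Gm43512) and with a score of macrophage markers as a term (adjusted p up to 0.107), and the EFAT call with the set as a term, with set A alone and without library 12 (up to 0.442). The SFAT call was lost without library 12, 14, 16, 17, 18 or 20, without the doubtful library and with set A alone, where the largest adjusted p was 0.141.

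Lss (chr10:76531588-76557138), which closes squalene epoxide to lanosterol, fell in BAT from 79.9, 36.5, 74.4 and 44.5 CPM to 27.4, 26.4, 19.4 and 19.5 CPM (-1.34 ± 0.25 (adjusted p = 0.00216)). No CysF library reached the CTRL range. In EFAT its CysF libraries lay within a narrow 26.1 to 27.9 CPM, but CTRL library 15 lay inside that range and the difference did not pass (-0.95 ± 0.39 (adjusted p = 0.0823)). The SFAT value was -0.65 ± 0.39 (adjusted p = 0.241).

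The steps that turn lanosterol into cholesterol followed the same direction with smaller sizes in BAT. Cyp51, the lanosterol demethylase, fell in BAT (-0.83 ± 0.25 (adjusted p = 0.029)), where 9 of 17 alternatives lost the call, and had -0.22 ± 0.42 in SFAT and -0.89 ± 0.43 in EFAT. Msmo1, the C4 methyl oxidase, fell in BAT by 0.80 and in EFAT by 0.98 on the log2 scale (adjusted p = 0.0218 and 0.00947), with -0.47 ± 0.26 in SFAT, and 6 of 17 alternatives lost the BAT call. Nsdhl, the sterol dehydrogenase acting after it, fell by 0.97 in BAT and 1.10 in EFAT (adjusted p = 0.00622 and 0.0319), with -0.31 ± 0.34 in SFAT, and 7 of 17 alternatives lost the EFAT call. Hsd17b7, the 3-ketosterol reductase, fell in EFAT (-1.40 ± 0.38 (adjusted p = 0.0135)) and had -0.37 ± 0.31 in BAT and -0.45 ± 0.37 in SFAT. Sc5d, lathosterol oxidase, fell in EFAT (-1.70 ± 0.40 (adjusted p = 0.00651)) and had -0.57 ± 0.22 in BAT and -0.81 ± 0.34 in SFAT.

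Dhcr7 (chr7:143823145-143848410), the reductase of 7-dehydrocholesterol, was at 27.0, 17.0, 29.8 and 13.9 CPM on CTRL and 14.8, 13.8, 7.75 and 12.5 CPM on CysF in SFAT. The lowest CTRL library fell inside the CysF range and the difference did not pass (-0.85 ± 0.32 (adjusted p = 0.0661)). It did pass in EFAT, from 38.5, 13.2, 24.5 and 10.8 to 6.68, 6.79, 5.86 and 7.58 CPM (-1.69 ± 0.43 (adjusted p = 0.00987)), and in BAT (-0.82 ± 0.24 (adjusted p = 0.0263)), where 8 of 17 alternatives lost the call (adjusted p up to 0.562). Lbr and Ebp had the smallest differences of the enzymes over the 3 depots. Lbr, the lamin B receptor, which is also a sterol reductase, had -0.01 ± 0.14 in BAT, -0.08 ± 0.16 in SFAT and 0.01 ± 0.11 in EFAT. Ebp, the sterol isomerase, had 0.07 ± 0.12, 0.02 ± 0.12 and -0.44 ± 0.17 in the same order. Tm7sf2, a second sterol reductase for the step of Lbr, had -0.59 ± 0.20, -0.42 ± 0.28 and -0.73 ± 0.46, and did not pass in any depot.

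**Figure D2:**
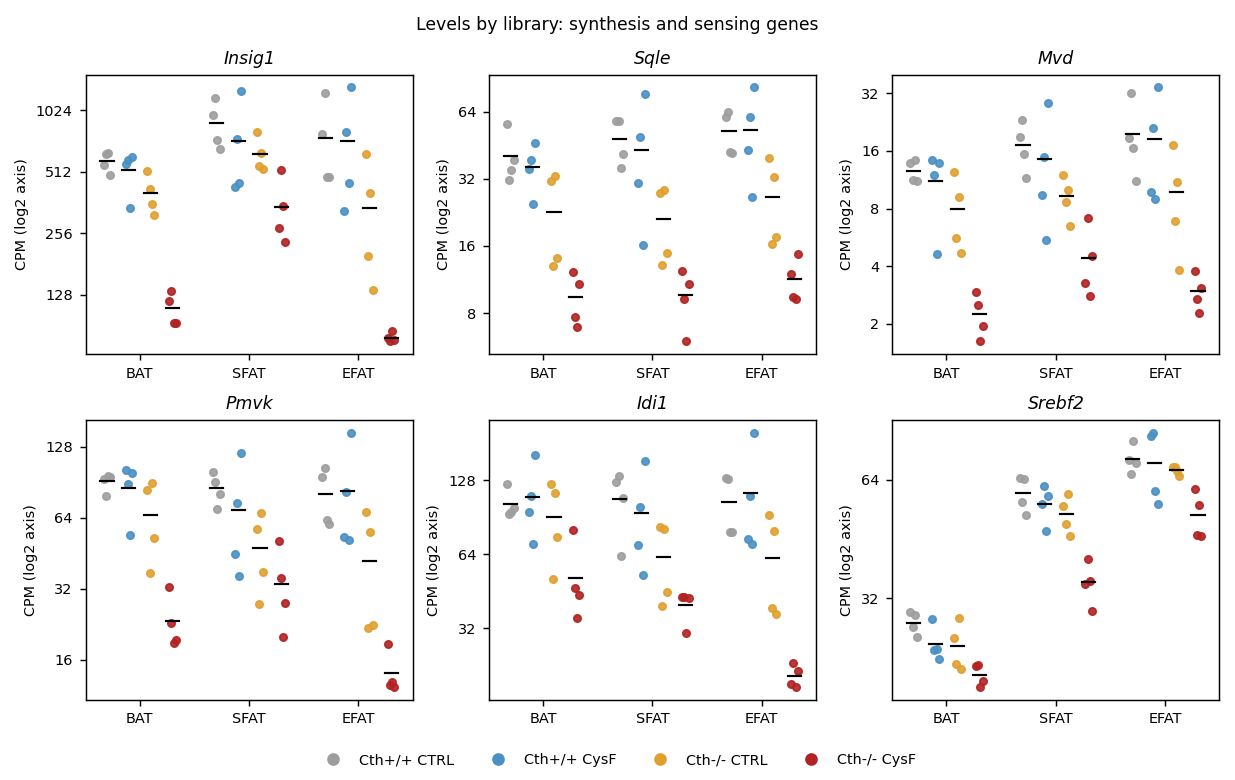
CPM (log2 axis) of Insig1, Sqle, Mvd, Pmvk, Idi1 and Srebf2 in each library, by depot and group, with bars at the mean of 4 libraries. The Cth-/- CysF mean is the lowest of the 4 groups in every depot and panel, while single libraries of the other groups spread widely.

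Insig1 had the largest fall of the 30 genes in BAT and EFAT. Insig1 (chr5:28071363-28078662) is itself an SREBP target and holds SCAP in the endoplasmic reticulum. In BAT it was at 553, 623, 630.3 and 496 CPM in Cth+/+ CTRL (libraries 1 to 4) and 559, 581, 339.7 and 604 CPM in Cth+/+ CysF (libraries 7, 8, 10 and 11). In Cth-/- mice it was at 517, 421, 355 and 316 CPM on CTRL and 119.6, 133, 93.5 and 93.6 CPM on CysF. The Cth-/- CysF libraries lay far below the other 12 (-1.87 ± 0.19 (adjusted p = 2.61e-05) for the diet in Cth-/-). In EFAT the Cth-/- values were 622, 198, 405 and 135 CPM on CTRL and 78.7, 76.0, 84.9 and 76.8 CPM on CysF. The CTRL libraries spanned more than the CysF libraries, and none reached down to them (-2.10 ± 0.50 (adjusted p = 0.00695)). In SFAT the values were 797, 546, 635 and 526 CPM and 272, 523, 347 and 231 CPM. These ranges did not overlap either, but the difference did not pass (-0.87 ± 0.33 (adjusted p = 0.0655)).

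Srebf2 (chr15:82147181-82205379), which encodes SREBP2, had smaller differences than Insig1 in every depot. It fell in SFAT from 54.9, 49.3, 59.0 and 46.1 CPM to 34.9, 40.4, 35.5 and 29.7 CPM without overlap (-0.57 ± 0.12 (adjusted p = 0.00255)). In EFAT it was 69.0, 69.1, 67.5 and 65.5 CPM and 60.6, 46.4, 55.1 and 46.0 CPM (-0.38 ± 0.13 (adjusted p = 0.0423)), a call that was lost in 9 of 17 alternatives. In BAT it was 25.3, 21.7, 28.4 and 21.1 CPM and 21.6, 21.6, 19.0 and 19.6 CPM, overlapping and not past the test (-0.24 ± 0.11 (adjusted p = 0.136)). Scap, the escort of SREBP2, rose slightly in SFAT (0.28 ± 0.09 (adjusted p = 0.028)), with 0.24 ± 0.15 in BAT and 0.18 ± 0.11 in EFAT. The SFAT call of Scap was lost in 10 of 17 alternatives. Insig2, the second INSIG protein, had 0.18 ± 0.16 in BAT, 0.13 ± 0.21 in SFAT and -0.33 ± 0.21 in EFAT.

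Neither gene of transport and esterification passed in any depot. Stard4, a soluble sterol carrier, had -0.25 ± 0.20 in BAT, -0.61 ± 0.27 in SFAT and -0.36 ± 0.17 in EFAT. Soat1 (chr1:156424525-156474331), which esterifies cholesterol for storage and is high in macrophages, was at 1.51, 2.07, 3.24 and 2.26 CPM on CTRL and 1.35, 0.95, 1.83 and 1.65 CPM on CysF in BAT (-0.66 ± 0.30 (adjusted p = 0.143)). In SFAT it was at 19.9, 51.5, 17.3 and 25.1 CPM and 13.3, 17.8, 24.9 and 19.8 CPM, where library 13 on CTRL stood above the rest (-0.59 ± 0.38 (adjusted p = 0.291)). In EFAT it was at 20.2, 34.8, 15.9 and 36.1 CPM and 32.8, 33.4, 38.8 and 34.1 CPM (0.38 ± 0.31 (adjusted p = 0.38)). The diets overlapped in each depot.

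The 5 efflux and LXR genes had positive differences in every depot, and 3 of 5 rose in BAT, 2 in SFAT and 4 in EFAT. Their median log2 fold change was 0.42, 0.16 and 0.34. Under relative log expression scaling in place of TMM, 2 of 5 were called in EFAT, since the small differences of Abca1 and Nr1h2 no longer passed. Mylip (chr13:45389742-45412022) was the member that rose in all 3 depots. In BAT it was at 23.3, 19.2, 22.1 and 19.2 CPM on CTRL and 37.0, 36.3, 39.2 and 48.6 CPM on CysF (0.94 ± 0.14 (adjusted p = 3.97e-04)). In SFAT it was at 55.6, 58.6, 52.8 and 61.9 CPM and 83.5, 85.7, 104 and 128 CPM (0.81 ± 0.19 (adjusted p = 0.00601)). In EFAT it was at 31.4, 39.9, 37.1 and 56.1 CPM and 95.8, 159, 133 and 168 CPM (1.76 ± 0.23 (adjusted p = 1.44e-04)). The diets did not overlap in any depot, and in EFAT library 16 was the lowest of the CysF group.

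Abcg1 (chr17:31057675-31117988), which moves cholesterol to high-density lipoprotein, rose in BAT and EFAT. In BAT it was at 4.62, 6.31, 7.03 and 5.84 CPM on CTRL and 16.7, 12.1, 18.1 and 16.7 CPM on CysF, with every CysF library above the other 12 of the depot (1.41 ± 0.17 (adjusted p = 9.15e-05)). In EFAT it was at 29.0, 29.1, 24.1 and 26.8 CPM and 62.3, 64.5, 87.1 and 59.2 CPM, again with no overlap (1.33 ± 0.15 (adjusted p = 5.57e-05)). SFAT had 30.0, 53.8, 24.5 and 37.5 CPM and 38.9, 30.8, 53.4 and 25.7 CPM, fully overlapping (0.03 ± 0.25 (adjusted p = 0.945)).

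Abca1 (chr4:53030787-53159895), the exporter that loads apolipoprotein A-I, had small differences with the diet in Cth-/- mice. In BAT it was at 119, 172, 158 and 167 CPM and 103, 141, 195 and 204 CPM (0.06 ± 0.18 (adjusted p = 0.848)). In SFAT it was at 473, 593, 513 and 520.3 CPM and 488, 622, 636 and 593 CPM (0.16 ± 0.12 (adjusted p = 0.371)). In EFAT it was at 527, 506, 526 and 442 CPM and 602, 679, 604 and 654 CPM, which did not overlap (0.34 ± 0.12 (adjusted p = 0.04)), but 14 of 17 alternatives lost that call. Nr1h3, which encodes LXR alpha, rose in BAT (0.42 ± 0.11 (adjusted p = 0.0136)) and SFAT (0.50 ± 0.14 (adjusted p = 0.0137)) and had 0.15 ± 0.17 in EFAT. Nr1h2, which encodes LXR beta, rose in EFAT (0.25 ± 0.09 (adjusted p = 0.0441)), where 12 of 17 alternatives lost the call, and had 0.03 ± 0.10 in BAT and 0.16 ± 0.10 in SFAT.

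**Figure D3:**
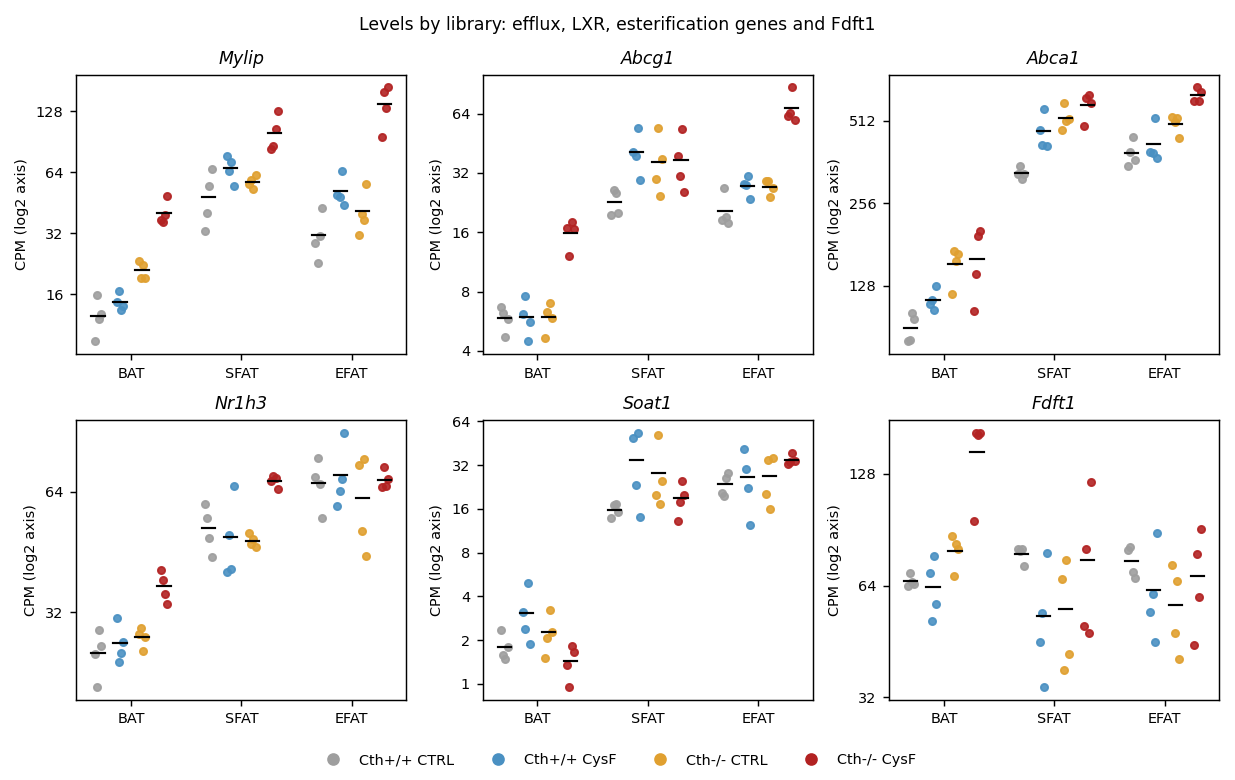
CPM (log2 axis) of Mylip, Abcg1, Abca1, Nr1h3, Soat1 and Fdft1 in each library, by depot and group, with bars at the mean of 4 libraries. Cth-/- CysF libraries lie highest for Mylip in every depot and for Abcg1 in BAT and EFAT but not in SFAT, and Fdft1 is highest in BAT of Cth-/- CysF mice.

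Other cell types moved with the same comparison, and their part in these results was not tested beyond the values given here. Of 12 macrophage markers, 10 fell in BAT, 9 in SFAT and 9 in EFAT from Cth-/- CTRL to Cth-/- CysF, and none was at 0 in a whole group. Their summed level went from 86.86 to 136.2 CPM on CTRL to 54.25 to 66.8 CPM on CysF in BAT, from 1263 to 3847 CPM to 735.8 to 1288 CPM in SFAT, and from 1269 to 1467 CPM to 723.7 to 1080 CPM in EFAT. Of 8 fibroblast and preadipocyte markers, 7 fell in BAT, 7 in SFAT and 5 in EFAT, where 1 rose. Their summed level went from 393.8 to 496.2 CPM to 127.9 to 154.6 CPM in BAT, from 4882 to 12390 CPM to 1379 to 1832 CPM in SFAT and from 3178 to 3858 CPM to 2407 to 2805 CPM in EFAT. Of 8 brown adipocyte markers, 1 rose in BAT, all 7 tested in SFAT and 2 of 6 tested in EFAT. Their summed level went from 2697 to 4276 CPM on CTRL to 6414 to 7709 CPM on CysF in BAT, from 156.4 to 352.4 CPM to 354.1 to 1844 CPM in SFAT and from 16.94 to 32.7 CPM to 35.69 to 73.31 CPM in EFAT. Of 7 B cell markers, 2 of 3 tested fell in BAT, all 7 in SFAT and 1 in EFAT. Their summed level went from 7.781 to 19.35 CPM to 2.336 to 6.469 CPM in BAT, from 157.7 to 634.3 CPM to 41.38 to 107 CPM in SFAT and from 212.2 to 1006 CPM to 43.91 to 57.08 CPM in EFAT. Of 10 skeletal muscle markers, 8 fell in BAT, where their sum went from 87.65 to 864 CPM to 2.788 to 136.3 CPM, and none was called in the white depots. Of 7 epithelial and epididymal markers, 2 rose in EFAT, where their sum went from 27.15 to 217.9 CPM to 132.2 to 718.3 CPM, and 2 of 6 endothelial markers rose there too. The sum of 7 markers of white and brown adipocytes went from 14830 to 18880 CPM to 12660 to 14780 CPM in EFAT, without overlap. In BAT it went from 6469 to 7219 CPM to 6836 to 7719 CPM, which overlapped. In SFAT it went from 11790 to 14880 CPM to 13740 to 17660 CPM, which also overlapped. The part of adipocyte content was not tested either. In bulk tissue, fewer cells of a type and less RNA per cell cannot be told apart. With the macrophage score of each library as a term in the fit, 7 members passed in BAT, all 7 among the 13 above, 20 in SFAT, of which 3 were among the 5, and 21 in EFAT, of which 16 were among the 18.

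Single libraries and the library sets weighed on the EFAT count. Without library 12, the Cth-/- CTRL library with the highest synthesis level, 10 genes passed in EFAT. With the set as a term 9 passed, and with set A alone, which left 1 Cth-/- CysF library against 3 on CTRL, 1 passed, Abcg1. In SFAT the count was 3 without library 12, 14 or 16, and 8 with DESeq2. Without the doubtful libraries the counts were 11 for BAT, 4 for SFAT and 15 for EFAT. The genes that passed under every one of the 17 alternatives were Pmvk, Mvd, Fdft1, Lss, Insig1 and Abcg1 in BAT, Srebf2 and Mylip in SFAT, and Abcg1 in EFAT.

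In Cth+/+ mice the same diet left the module without a call. None of the 30 genes passed in BAT, SFAT or EFAT, where 0.0826%, 0.0664% and 0% of all genes were called. At an unadjusted p under 0.05 there were 3, 4 and 2 of the 30 members, against 9.8%, 14% and 3.93% of all genes, and DESeq2 called 2 in SFAT and none in the other depots. The median difference of the enzymes was -0.09 in BAT, -0.18 in SFAT and 0.03 in EFAT. Insig1 in SFAT, for example, was at 969, 1168, 730.5 and 663 CPM on CTRL and 431, 739, 450.2 and 1266 CPM on CysF, ranges that overlapped. Some members had groups that did not overlap without passing the test. The share of all genes that did so was not computed for this comparison, so nothing is read from it. Msmo1 and Stard4 in BAT had every CysF library below every CTRL library, and some efflux genes went the other way. Mylip in EFAT was at 28.7, 22.9, 30.9 and 42.7 CPM on CTRL and 49.3, 48.1, 65.0 and 43.9 CPM on CysF (0.72 ± 0.22 (adjusted p = 1)), and Abcg1 in SFAT was at 19.6, 26.3, 25.2 and 20.1 CPM and 40.6, 39.1, 54.0 and 29.6 CPM (0.84 ± 0.26 (adjusted p = 0.179)). Abca1 went from 80.2, 80.9, 102 and 96.8 CPM to 110.1, 114, 104 and 127 CPM in BAT (0.34 ± 0.18 (adjusted p = 0.572)) and from 328, 349, 313 and 326 CPM to 475, 418, 566 and 416 CPM in SFAT (0.51 ± 0.12 (adjusted p = 0.0973)). The spread among the Cth+/+ CysF libraries was wide: the SD of Insig1 was 389 CPM around a mean of 722 CPM in SFAT and 446 CPM around 726 CPM in EFAT.

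The genotype alone, on the control diet, moved few members past the test. In BAT Abca1 rose in Cth-/- (0.78 ± 0.18 (adjusted p = 0.0376)), from 80.2 to 102 CPM in Cth+/+ to the 119 to 172 CPM given above. Mylip also rose in BAT (0.75 ± 0.14 (adjusted p = 0.0195)), from 9.36, 15.8, 12.1 and 12.7 CPM. In SFAT Abca1 rose (0.67 ± 0.12 (adjusted p = 0.0421)) from the 313 to 349 CPM of Cth+/+. In each of these the genotypes did not overlap, but some members that did not pass were also without overlap. Those were Stard4 in BAT, Pmvk, Sqle, Cyp51, Tm7sf2, Sc5d and Dhcr7 in SFAT and Sqle and Cyp51 in EFAT, all lower in Cth-/-. Soat1 in SFAT was without overlap and higher. The share of all genes without overlap was not computed for this comparison. Over all genes, 2.1% were called for BAT, 0.103% for SFAT and 0.0464% for EFAT, where no member was called by edgeR or DESeq2 at an adjusted p under 0.05. At an unadjusted p under 0.05 there were 12 members in BAT, 18 in SFAT and 10 in EFAT, against 18.3%, 11% and 6.2% of all genes. The synthesis enzymes had negative differences in 18 of 19 cases in BAT, 18 in SFAT and 19 in EFAT, with medians of -0.40, -0.74 and -0.76, but no enzyme passed. In BAT both calls were lost without library 1 or 3. That of Abca1 was also lost without 2, 4, 13, 14 or 15 and with set A alone, 8 of 17 alternatives in all. In SFAT the call was lost without any 1 of the 8 libraries compared and without the doubtful library. In set A alone 11 members passed in BAT and 16 in SFAT, mostly lower.

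On CysF the 2 genotypes differed across most of the module. In BAT 23 genes passed (6 higher and 17 lower in Cth-/-), in SFAT 22 (5 and 17) and in EFAT 24 (4 and 20). Over all genes, 14.5% were higher and 17.1% lower for BAT, 18.1% and 19.4% for SFAT, and 20.1% and 19.6% for EFAT. The lower calls exceeded these shares in each depot. The higher calls lay slightly above the share in BAT, near it in SFAT and below it in EFAT. In EFAT 3 of 4 Cth-/- but 0 of 4 Cth+/+ libraries of this comparison were in the set with Gm43512. Of the 19 enzymes, 15 were lower in BAT, 14 in SFAT and 17 in EFAT, with median log2 fold changes of -0.90, -1.10 and -2.07. The 5 lowest in EFAT were Insig1 (-3.20 ± 0.52), Fdps (-2.96 ± 0.54), Mvd (-2.64 ± 0.51), Pmvk (-2.56 ± 0.42) and Idi1 (-2.47 ± 0.37). In BAT they were Mvd (-2.30 ± 0.34), Insig1 (-2.24 ± 0.20), Sqle (-1.95 ± 0.31), Pmvk (-1.87 ± 0.26) and Lss (-1.69 ± 0.25). In SFAT they were Sqle (-2.17 ± 0.41), Mvd (-1.72 ± 0.43), Fdps (-1.54 ± 0.49), Dhcr7 (-1.36 ± 0.33) and Lss (-1.36 ± 0.39).

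Of the 5 efflux and LXR genes, 4 were higher in Cth-/- on CysF in each depot. Mylip had the largest difference of the 5 in BAT (1.46 ± 0.14), SFAT (0.58 ± 0.19) and EFAT (1.43 ± 0.22). Abcg1 was higher in BAT (1.41 ± 0.17) and EFAT (1.31 ± 0.15). Abca1 was higher in BAT (0.50 ± 0.18), SFAT (0.32 ± 0.12) and EFAT (0.59 ± 0.12), but its libraries overlapped in BAT and SFAT, where 9 and 10 of 17 alternatives lost the call (adjusted p up to 0.854 and 0.159). Nr1h3 was higher in BAT (0.47 ± 0.11) and SFAT (0.46 ± 0.14), and Nr1h2 in SFAT (0.33 ± 0.10) and EFAT (0.41 ± 0.09). Fdft1 was again the enzyme that went up, in BAT (1.21 ± 0.16), and Scap was higher in BAT (0.53 ± 0.15) and SFAT (0.38 ± 0.09). Among the remaining genes, Srebf2 was lower in SFAT (-0.67 ± 0.12) and EFAT (-0.44 ± 0.13), Stard4 in SFAT (-0.85 ± 0.27) and EFAT (-0.72 ± 0.17), and Soat1 in BAT (-1.08 ± 0.30), where its difference turned to 0.47 with the macrophage score as a term. This comparison shares its Cth-/- CysF libraries with the diet comparison above. Of the 12 macrophage markers, 11 were lower in Cth-/- for BAT, 11 for SFAT and 9 for EFAT, and of the 8 fibroblast and preadipocyte markers 7, 7 and 5. The summed macrophage markers were at 113.2 to 250.5 CPM in BAT, 1228 to 3840 CPM in SFAT and 1049 to 1564 CPM in EFAT of Cth+/+ CysF mice, against the lower Cth-/- CysF ranges above, which overlapped them in SFAT and EFAT. The fibroblast and preadipocyte markers were at 463.8 to 1039 CPM, 7129 to 15890 CPM and 2476 to 4022 CPM in the same order. Brown adipocyte markers were higher in Cth-/- for 2 of 8 in BAT and all 7 tested in SFAT, with 1 higher and 4 lower of 6 in EFAT, and all 10 skeletal muscle markers were lower in BAT. In SFAT 11 genes passed without library 11, the Cth+/+ CysF library with the highest synthesis level. In BAT 5 passed with the macrophage score as a term, and in EFAT 1 passed with set A alone, which leaves 1 Cth-/- library.

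Whether the diet acted differently in the 2 genotypes was tested with an interaction term. In BAT 7 members passed: the responses of Pmvk (-1.40 ± 0.36), Mvd (-1.61 ± 0.46), Lss (-1.20 ± 0.34) and Insig1 (-1.73 ± 0.27) were lower in Cth-/-, and those of Fdft1 (0.93 ± 0.23), Abcg1 (1.38 ± 0.25) and Mylip (0.71 ± 0.20) higher. In EFAT 4 passed: Mvk (-1.61 ± 0.42) and Idi1 (-1.71 ± 0.50) lower, Abcg1 (0.91 ± 0.21) and Mylip (1.04 ± 0.31) higher. In SFAT 4 passed: Srebf2 (-0.48 ± 0.16) and Soat1 (-1.73 ± 0.55) lower, Scap (0.38 ± 0.12) and Nr1h3 (0.57 ± 0.19) higher. Over all genes, 2.1% were called higher and 4.32% lower for BAT, 9.39% and 12.4% for SFAT, and 5.04% and 5.35% for EFAT. In BAT the 3 higher and 4 lower calls among 30 members exceeded these shares, while the 2 higher and 2 lower calls in SFAT lay below them and those in EFAT near them. The adjusted p-values of the 15 calls lay between 0.00184 for Insig1 in BAT and 0.0495 for Mvd in BAT.

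Most interaction calls depended on single libraries, and some on the scaling. Those of Insig1 and Abcg1 in BAT and Abcg1 in EFAT were not lost by either. They held in 23, 22 and 20 of 24 alternatives, and both BAT calls were lost with the macrophage score as a term. With relative log expression scaling the split changed from 2 higher and 2 lower to 0 and 2 in SFAT and to 1 and 2 in EFAT. Leaving out 1 library gave 2 to 7 calls in BAT, 0 to 5 in SFAT and 1 to 12 in EFAT, with the highest EFAT count without library 15, and without the doubtful libraries the counts were 3, 3 and 0. For Soat1 in SFAT the term changed from -1.73 to 0.51 with the macrophage score in the fit. Soat1 was at 49.4, 23.3, 53.3 and 14.1 CPM in Cth+/+ CysF and 13.8, 16.9, 17.2 and 15.3 CPM in Cth+/+ CTRL. The summed macrophage markers of SFAT ranged from 1228 to 3840 CPM in Cth+/+ CysF and from 1297 to 1773 CPM in Cth+/+ CTRL.

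**Figure D4:**
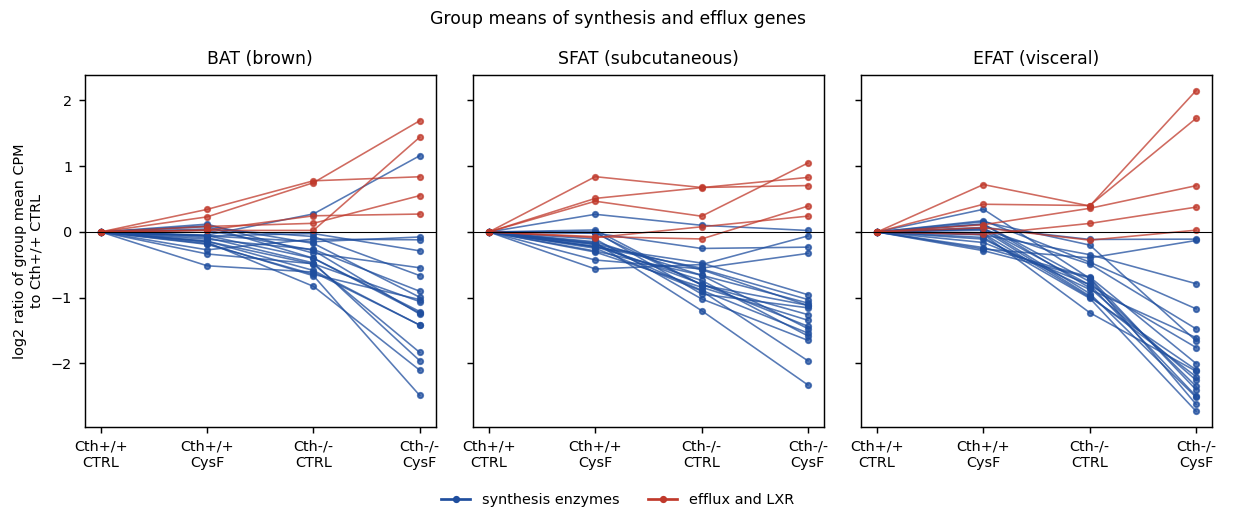
Log2 ratio of the group mean CPM to the Cth+/+ CTRL mean (vertical axis) for the 19 synthesis enzymes and the 5 efflux and LXR genes across the 4 groups (horizontal axis), by depot. Each line is 1 gene: the lines of the enzymes mostly run down and those of the efflux and LXR genes mostly up towards Cth-/- CysF, with Fdft1 the rising enzyme in BAT.

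The 2 arms of the module were set side by side in each library. The mean log2 CPM of the 19 enzymes minus that of the 5 efflux and LXR genes was 0.98 ± 0.18 (SD, n = 4) in Cth+/+ CTRL, 0.70 ± 0.26 in Cth+/+ CysF, 0.19 ± 0.36 in Cth-/- CTRL and -1.003 ± 0.30 in Cth-/- CysF in BAT. In SFAT the means were -0.03 ± 0.37, -0.64 ± 0.79, -1.06 ± 0.49 and -1.83 ± 0.35. In EFAT they were 0.08 ± 0.40, -0.25 ± 0.69, -0.92 ± 0.61 and -2.70 ± 0.20. The order of the groups was the same in each depot. In every depot the Cth-/- CysF libraries lay below all 12 others, and the Cth-/- CTRL libraries overlapped the Cth+/+ CysF libraries. The difference depends on which genes were chosen and is a description with no test.

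**Figure D5:**
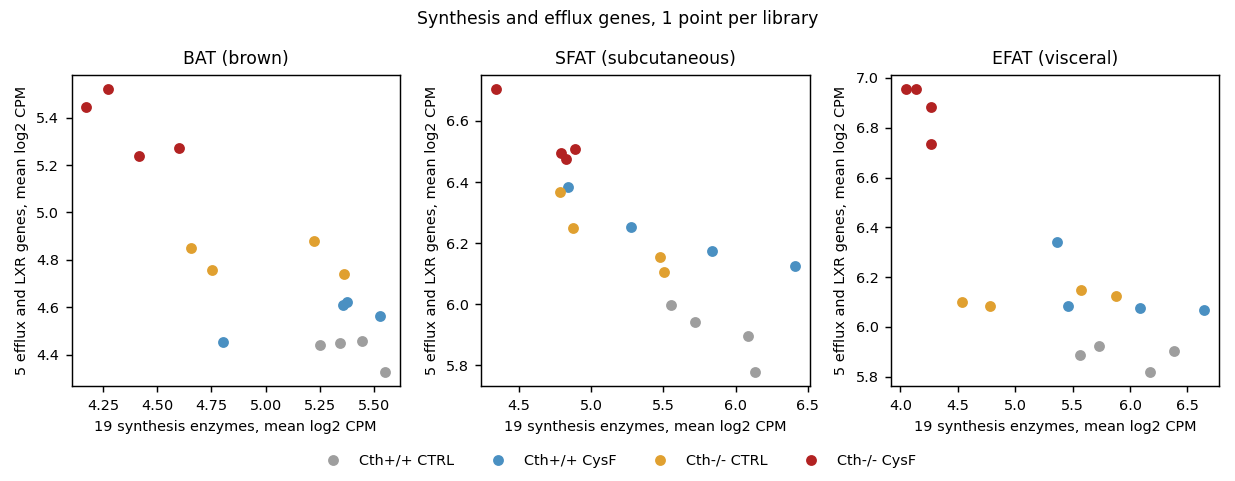
Mean log2 CPM of the 5 efflux and LXR genes (vertical axis) against that of the 19 synthesis enzymes (horizontal axis), 1 point per library, 16 per depot. Cth-/- CysF libraries sit at the upper left in each depot, while the other groups spread mainly along the horizontal axis.

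Within some groups the libraries took a similar order in the mean level of the enzymes in different depots. Among the Cth+/+ CysF libraries, the mean log2 CPM of the enzymes followed the order 11, 8, 7, 10 in every depot: in BAT 5.53, 5.37, 5.36 and 4.81, in SFAT 6.41, 5.84, 5.28 and 4.84, in EFAT 6.65, 6.09, 5.46 and 5.36. Among the Cth-/- CTRL libraries, 12 and 14 lay above 13 and 15 in every depot, at 5.36 and 5.22 against 4.65 and 4.75 in BAT, 5.48 and 5.50 against 4.79 and 4.87 in SFAT, and 5.87 and 5.57 against 4.78 and 4.54 in EFAT. In Cth-/- CysF library 18 was the lowest in every depot and the order of 16, 17 and 20 differed. In Cth+/+ CTRL the order did not recur: from high to low it was 1, 3, 4, 2 for BAT, 1, 2, 4, 3 for SFAT and 2, 1, 3, 4 for EFAT. The Cth-/- CysF libraries spanned 0.43, 0.54 and 0.22 log2 units. The efflux and LXR genes varied less within groups: their SD in Cth-/- CTRL was 0.07, 0.12 and 0.03 in BAT, SFAT and EFAT, against 0.35, 0.38 and 0.63 for the enzymes. In Cth-/- CysF the SDs were closer, at 0.1362, 0.1075 and 0.1049 against 0.1855, 0.249 and 0.1061, and nearly equal in EFAT. In BAT and SFAT libraries 12 and 14 were in the set with Gm43512 and 13 and 15 were not, and in EFAT library 15 alone of the 4 was in it.

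The depots differed in the response of 3 members. Abcg1 responded to the diet in Cth-/- mice less in SFAT than in BAT (-1.39 ± 0.30 (adjusted p = 0.00935)) and more in EFAT than in SFAT (1.24 ± 0.29 (adjusted p = 0.012)). Hmgcs1 fell further in EFAT than in BAT (-1.11 ± 0.30 (adjusted p = 0.0104)). Mylip rose further in EFAT than in BAT (0.75 ± 0.27 (adjusted p = 0.0484)) and than in SFAT (0.89 ± 0.27 (adjusted p = 0.0445)). Over all genes, 1.34% were higher and 0.823% lower for SFAT against BAT, 7.29% and 8.93% for EFAT against BAT, and 1.04% and 3.35% for EFAT against SFAT. For the other 27 genes a difference between depots was not shown in this fit. With the replicate number as a block, which the labels do not tie to a mouse, 2 members were called for SFAT against BAT, 9 for EFAT against BAT and 12 for EFAT against SFAT, so the number of members that differ between depots depends on the pairing. The count of enzymes called in each depot is no test of a difference between depots. The 24 alternatives between depots did not include set A alone or the macrophage score as a term. Of the 5 differences, that of Abcg1 between SFAT and BAT and that of Hmgcs1 held in all 24 alternatives. That of Abcg1 between EFAT and SFAT was lost without SFAT library 13 (adjusted p = 0.0559). Both differences of Mylip were lost without the doubtful libraries and in most of the 24 alternatives, 16 against BAT and 15 against SFAT.

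Baseline levels also differed between depots. In Cth+/+ CTRL mice, 13 members differed between SFAT and BAT (5 higher in SFAT, 8 lower), 15 between EFAT and BAT (5 higher in EFAT, 10 lower) and 1 between EFAT and SFAT, where Mylip was lower in EFAT (-0.77 ± 0.19 (adjusted p = 0.00385)). Over all genes, 27.1% were higher and 25.9% lower in SFAT than BAT, 33.1% and 26.9% in EFAT than BAT, and 9.57% and 5.66% in EFAT than SFAT, so the 8 lower calls of SFAT against BAT lay near the share of all genes, the 10 of EFAT against BAT slightly above it, and the other counts below it. Soat1 had the largest difference, higher in SFAT (2.05 ± 0.38) and EFAT (2.50 ± 0.38) than in BAT. Abca1, Abcg1 and Lbr were also higher in both white depots, by 0.80, 0.89 and 0.58 in SFAT and 0.91, 0.60 and 0.64 in EFAT. Mylip was higher in SFAT (0.89 ± 0.19) and Ebp in EFAT (0.50 ± 0.15). Among the efflux and LXR genes Nr1h2 went the other way, lower than in BAT in SFAT (-0.43 ± 0.09) and EFAT (-0.52 ± 0.09). Among the enzymes, the largest negative differences were those of Acat2, -1.55 ± 0.26 in SFAT and -2.02 ± 0.27 in EFAT, followed by Fdps (-1.31 ± 0.47 and -1.75 ± 0.48) and Pmvk (-1.18 ± 0.37 and -1.39 ± 0.37). Idi1 followed with -1.01 ± 0.35 in SFAT and -1.19 ± 0.35 in EFAT, then Dhcr7 in SFAT (-0.99 ± 0.35) and Lss in EFAT (-1.08 ± 0.37). Markers of other cell types differed between the depots too. Summed macrophage markers in Cth+/+ CTRL were at 79.82 to 130.2 CPM in BAT, 1297 to 1773 CPM in SFAT and 1095 to 1245 CPM in EFAT. Fibroblast and preadipocyte markers were at 393.8 to 565.8, 5440 to 6764 and 3587 to 3643 CPM. These sums were scaled within each depot, and their part in the baseline differences was not tested.

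Levels between genes were compared per length, as CPM per kilobase of exon in Cth+/+ CTRL. Insig1 was the highest member, at 317 ± 34.0 (SD, n = 4) in BAT, 231 ± 61.5 in SFAT and 178 ± 88.2 in EFAT. Acat2 followed in BAT at 139 ± 30.8, with Pmvk at 90.7 ± 8.22 and Hmgcs1 at 87.5 ± 5.74, which did not differ from each other beyond their spread. In EFAT Hmgcs1 was second at 90.03 ± 16.9. The lowest was Soat1 in BAT, at 0.314 ± 0.0682, followed there by Abcg1 at 1.37 ± 0.205 and Tm7sf2 at 1.63 ± 0.386.

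Neighbouring pathways were read from lists of other genes, whose counts stand against the same shares of all genes: 7.81% higher and 10.2% lower for BAT, 11.8% and 13.6% for SFAT, and 14.5% and 14.3% for EFAT. In the shorter lists a single call is a share of about this size or more, and nothing is read from their counts. Fatty acid synthesis and its acetyl-CoA supply, driven largely by the related factor SREBP1, fell with the diet in Cth-/- mice for 5 of 10 genes in BAT and 6 of 10 in EFAT, and for 1 of 10 in SFAT. Examples were Scd2, a stearoyl-CoA desaturase (-2.49 ± 0.40 in BAT and -1.92 ± 0.44 in SFAT), and Acss2, an acetyl-CoA synthetase (-2.18 ± 0.21 in BAT and -2.42 ± 0.73 in EFAT). Acly, ATP citrate lyase (-2.87 ± 0.75), and Fasn, fatty acid synthase (-2.07 ± 0.66), fell in EFAT. The median of this list was -0.72 for BAT, -0.0022 for SFAT and -1.86 for EFAT.

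Of 9 other genes of SREBP processing, 2 rose and 1 fell in BAT, 2 rose and 1 fell in SFAT, and 1 rose and 2 fell in EFAT. Rnf145, a sterol-responsive ubiquitin ligase and LXR target, fell in SFAT (-0.46 ± 0.13) and EFAT (-0.69 ± 0.09), and Srebf1, which encodes SREBP1, fell in EFAT (-0.83 ± 0.29). Pgrmc1, a sterol-binding membrane protein, rose in BAT (0.46 ± 0.12) and SFAT (0.53 ± 0.12).

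Among 15 other genes of sterol uptake, lysosomal export and transfer, 2 rose and 1 fell in BAT, 2 rose and 1 fell in SFAT, and 2 rose and 3 fell in EFAT. Gramd1b, which carries plasma membrane cholesterol to the endoplasmic reticulum, rose in BAT (1.64 ± 0.21), SFAT (1.33 ± 0.18) and EFAT (0.94 ± 0.14). Stard5, a soluble sterol carrier, rose in BAT (0.71 ± 0.12). Cav1, the caveolar coat protein, fell in SFAT (-1.03 ± 0.24) and EFAT (-2.09 ± 0.22). Npc2, the lysosomal sterol carrier, fell in EFAT (-0.73 ± 0.22).

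Of the wider LXR targets and partners tested, 1 of 8 rose in BAT, 1 of 8 rose and 2 fell in SFAT, and 1 of 9 rose and 1 fell in EFAT. Apoc1, an apolipoprotein, rose in SFAT (1.03 ± 0.14) and EFAT (0.68 ± 0.15), and Smpdl3a, a sphingomyelinase-like enzyme, rose in BAT (0.29 ± 0.09). Pltp, the phospholipid transfer protein, and Arl4c, a small GTPase, fell in SFAT (-1.18 ± 0.33 and -1.21 ± 0.33). The transporter Abca7 fell in EFAT (-0.50 ± 0.16). The non-sterol branches of the mevalonate pathway, 5 genes, had 1 rise and 1 fall in BAT (Pdss1, 0.57 ± 0.18, and Dhdds, -0.32 ± 0.10), 1 rise in SFAT (Nus1, 0.44 ± 0.13) and no call in EFAT. Pdss1 makes the tail of coenzyme Q, and Dhdds with Nus1 makes dolichol. Of 4 oxysterol and bile acid enzymes, none of 3 tested was called in BAT, 1 of 4 fell in SFAT and 1 of 4 fell in EFAT.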

How the data were processed

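Poly(A) RNA of 48 libraries (3 depots, 2 genotypes, 2 diets, 4 libraries a group) was read from the deposited table of expected counts per gene. Per the submitters' processing notes, FastQC, STAR, Picard and RSEM were used with the build mm10; versions, strandedness and the annotation used in counting were not given in the sources used here. The authors' estimated counts were not scaled, and in each library 5.31 to 8.16% of them had a fractional part. Coordinates come from GENCODE M21 (GRCm38), in which 47310 of 47729 IDs were found without their version suffix, all 30 members included. Promoters come from RefSeq (GRCm38.p6).

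Counts were rounded and tested by depot (16 libraries, 4 groups, 5 comparisons) with the edgeR 4.0.16 quasi-likelihood F-test (TMM scaling, filterByExpr with a minimum count of 10 and total of 15, Benjamini-Hochberg adjustment over all genes tested, call at 0.05, two-sided). Differences between depots came from a fit of all 48 libraries in 12 groups. The standard error is the absolute log2 fold change divided by the square root of F. CPM use TMM library sizes, those of the depot for levels by library and those of the 48 libraries for levels between depots; mean log2 CPM use a prior count of 2. The fit was tested on simulated data. DESeq2 1.42.0, limma 3.58.1, R 4.3.3, Python 3.11.15, pandas 2.3.3 and matplotlib 3.10.9 were also used. At 16.2 M to 46.0 M counts, counting error is small beside the spread between libraries for all but the lowest genes.

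Every member is named with its diet difference in Cth-/- mice. Values of every library are given for Insig1, Srebf2, Abca1, Abcg1, Mylip, Soat1 and, per depot, the 3 enzymes with the smallest adjusted p, 15 genes in all. In other comparisons the members that passed are named, or the 5 largest in each direction where more than 10 passed; of the other lists up to 3 genes that passed and averaged 1 CPM or more are named. The members, lists and this rule were chosen with earlier results of these data known. The doubtful libraries and the macrophage score as a term were added after seeing the data. Some genes of the pathway are not reported here.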

Additional observations from a re-analysis of the deposited data

Results flagged for a closer look

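A library stood far from the other 3 of its group in 13 of 204 groups examined, over the 15 genes with every library given and the 2 mean levels. Chance flags about 1 in 20 groups examined in this way. In BAT of Cth+/+ CysF mice library 10 was the lowest for Insig1 (339.7 CPM) and Mvk (5.69 CPM), and in EFAT of the same group library 10 was the highest for Abca1 (522.2 CPM) and for the mean log2 CPM of the efflux and LXR genes (6.3392). In Cth+/+ CTRL, library 1 of BAT was the highest for Idi1 (123.0 CPM) and the lowest for the efflux mean (4.3278), library 2 of BAT was the lowest for Pmvk (79.39 CPM), library 2 of EFAT was the highest for Abcg1 (26.94 CPM) and library 4 of SFAT was the lowest for Fdft1 (72.3 CPM). In Cth-/- CysF, library 16 was the lowest for Fdft1 in BAT (95.21 CPM) and the highest for Pmvk in EFAT (18.72 CPM), and library 18 of SFAT was the lowest for Idi1 (30.67 CPM) and the highest for the efflux mean (6.7058).

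The diet response differed between genotypes by the interaction term for 15 results, where 2.1% of all genes were called higher and 4.32% lower for BAT, 9.39% and 12.4% for SFAT, and 5.04% and 5.35% for EFAT. The 2 calls in each direction among 30 members lay below these shares in SFAT and near them in EFAT. In BAT these were Pmvk (-1.40), Mvd (-1.61), Lss (-1.20), Insig1 (-1.73), Fdft1 (0.93), Abcg1 (1.38) and Mylip (0.71). In SFAT they were Srebf2 (-0.48), Soat1 (-1.73), Scap (0.38) and Nr1h3 (0.57), and in EFAT Mvk (-1.61), Idi1 (-1.71), Abcg1 (0.91) and Mylip (1.04), all as log2 differences of Cth-/- minus Cth+/+. The diet response in Cth-/- mice differed between depots for 5 results: Abcg1 (-1.39) for SFAT minus BAT, Hmgcs1 (-1.11) and Mylip (0.75) for EFAT minus BAT, and Abcg1 (1.24) and Mylip (0.89) for EFAT minus SFAT.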

How the results depend on the processing

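Values that moved by over 1.5 times are given against the count in the report. With the macrophage score as a term, added after seeing the data, the diet in Cth-/- mice had 7 calls in BAT (13) and 20 in SFAT (5), the genotype on CysF had 5 in BAT (23), and the interaction had 0 in BAT (7), 9 in SFAT (4) and 14 in EFAT (4); Soat1 reversed to 0.47 in BAT for the genotype on CysF and to 0.51 in SFAT for the interaction. With library set A alone, the genotype on CTRL had 11 calls in BAT (2) and 16 in SFAT (1), the interaction 2 for BAT, 1 for SFAT and 0 for EFAT, and in EFAT, where set A leaves 1 Cth+/+ CTRL and 1 Cth-/- CysF library that are assumed to vary like the other groups, the diet in Cth-/- and the genotype on CysF had 1 each (18 and 24). With the set as a term, the diet in Cth-/- had 9 calls in SFAT and 9 in EFAT, the interaction 0 in EFAT, and the diet response of EFAT against BAT and against SFAT 1 each (2 and 2). Without the doubtful libraries, added after seeing the data, the genotype on CTRL had 4 calls in BAT and 0 in SFAT, the interaction 3 in BAT and 0 in EFAT, and the response of EFAT against BAT and against SFAT 1 each. DESeq2 called 8 members for the diet in Cth-/- in SFAT, 2 for the diet in Cth+/+ in SFAT (0) and 13 for the interaction in EFAT. Without the filter on low counts, the genotype on CTRL had 0 calls in SFAT, the interaction 1 in SFAT and 2 in EFAT, and the response of EFAT against BAT and against SFAT 1 each. Relative log expression scaling left 2 interaction calls in SFAT. A fit of only the 2 groups compared gave 8 calls for the diet in Cth-/- and 0 for the genotype on CTRL in SFAT, and a fit of only the 2 depots gave 1 for the response of EFAT against SFAT. The cause was not tested for any of these.

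Leaving out 1 library at a time gave, for the diet in Cth-/-, 10 to 16 calls in BAT, 3 to 5 in SFAT (3 without 12, 14 or 16) and 10 to 20 in EFAT (10 without 12). The diet in Cth+/+ gave 0 to 0, 0 to 1 (1 without 11) and 0 to 0. The genotype on CTRL gave 0 to 2 in BAT (0 without 1 or 3, 1 without 2, 4, 13, 14 or 15), 0 to 0 in SFAT and 0 to 0 in EFAT, and the genotype on CysF 20 to 23, 11 to 23 (11 without 11) and 22 to 26. The interaction gave 2 to 7 in BAT (4 or fewer without any of 1, 2, 3, 4, 7, 8, 11, 14, 16, 17, 18 or 20), 0 to 5 in SFAT (2 or fewer without any but 3, 11 or 20) and 1 to 12 in EFAT (12 without 15, 9 without 10, 8 without 16, 2 or fewer without 1, 3, 4, 8, 11, 12, 14, 17 or 20). The diet response differed in 1 to 1 members for SFAT against BAT. It differed in 1 to 5 for EFAT against BAT (5 without EFAT 15 or 16; 1 without BAT 12, 13, 14, 16, 17 or 18 or EFAT 12, 14, 17, 18 or 20) and in 0 to 6 for EFAT against SFAT (0 without SFAT 13; 6 without EFAT 15; 1 without SFAT 12, 15, 16 or 17 or EFAT 12, 13, 14, 17, 18 or 20). The baseline comparisons gave 9 to 14, 13 to 16 and 1 to 1.

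The same replicate numbers occur in each depot, but the labels do not say that a number is a mouse. Over 48 pairs of same-numbered libraries the correlation of their deviations from the group means ran from -0.118 to 0.481 (median 0.112), 26 pairs were over 0.1, and 26 correlated best with their own number. The replicate block gave 2 calls for the diet response of SFAT against BAT, 9 for EFAT against BAT and 12 for EFAT against SFAT, and 2 for the baseline of EFAT against SFAT; the other baseline counts were 19 and 19 (13 and 15). Within a depot no number is shared between groups, so no block could be fitted there.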

Other observations

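On CysF the genotype also moved genes of neighbouring pathways. Fatty acid synthesis and its acetyl-CoA supply were lower in Cth-/- than Cth+/+ mice for 6 of 10 genes (BAT), 2 of 10 (SFAT) and all 10 (EFAT), with median log2 fold changes of -1.19, -0.30 and -2.60. Scd2, a stearoyl-CoA desaturase, fell in each depot (-3.44 ± 0.41 in BAT, -3.23 ± 0.46 in SFAT and -3.15 ± 0.53 in EFAT), as did Acss2, an acetyl-CoA synthetase (-2.78 ± 0.22, -1.88 ± 0.50 and -3.70 ± 0.77). Of 15 genes of sterol uptake, lysosomal export and transfer, 4 were higher and 2 lower in BAT, and 3 were higher and 3 lower in both SFAT and EFAT. Gramd1b, a carrier of plasma membrane cholesterol, was higher in BAT (1.49 ± 0.21), SFAT (0.92 ± 0.18) and EFAT (0.57 ± 0.14), while Npc2, the lysosomal sterol carrier, was lower in all 3 (-0.72 ± 0.15, -0.50 ± 0.15 and -0.95 ± 0.22). Lpcat3, a phospholipid acyltransferase and LXR target, was lower in each depot (-0.41 ± 0.14, -0.52 ± 0.15 and -0.63 ± 0.19), and Rxrb, a retinoid X receptor and partner of the LXRs, was higher (0.55 ± 0.19, 0.43 ± 0.13 and 0.36 ± 0.13). Markers of other cell types also differed between these groups, at the summed levels given in the report, and their part in these values was not tested.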
